A study of Homo sapiens with 19 samples.

Results

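LTR2B sgRNA 4 was 1 of 4 guide RNAs delivered as a pool to bring dCas9-KRAB to LTR2 and LTR2B elements, and its places in the human genome are described here. A site was any stretch of hg38 on chromosomes 1 to 22, X and Y, on either strand, that matched the guide with at most 3 mismatches and was followed by NGG, the PAM that Cas9 needs. The search found 555 sites of sgRNA 4 among 2379 sites of all 4 sgRNAs. Of the 555 sites, 157 matched the guide perfectly, 115 had 1 mismatch, 108 had 2 and 175 had 3. They lay on both strands, 264 on the plus strand and 291 on the minus strand.

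The sites were read against 5 peak lists of chromatin immunoprecipitation libraries, each from a single library. The dCas9 list came from K562, a chronic myelogenous leukaemia line, carrying dCas9-KRAB and a pool of viruses for the 4 LTR2B sgRNAs, sorted for the mCherry of dCas9-KRAB and the BFP of the sgRNA vectors. The H3K27ac lists came from untreated HL-60 cells, from untreated Molm13 cells, and from dCas9-KRAB cells of the lines OCI-AML3 and K562 that carried an empty sgRNA vector, so none of them shows H3K27ac after the elements were targeted. HL-60, Molm13 and OCI-AML3 are acute myeloid leukaemia lines. The cells were sorted pools rather than clones, and which of the 4 sgRNAs any given cell held was not read out. With 1 library behind each list there was no replicate spread and no test: shares of sites carry Wilson 95% intervals and differences of shares carry Newcombe 95% intervals, which cover the counting of sites only. The 4 sgRNAs share elements and peaks, so sites are not independent measurements, and the read depth behind the lists is unknown.

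LTR2B is the long terminal repeat of an endogenous retrovirus family, a remnant of ancient infections of the germ line that is now copied across the genome. Long terminal repeats flank the proviral genes on both sides, carry promoter and enhancer sequence, and most often survive alone after recombination removed the genes between them. Catalytically dead Cas9 finds DNA by its PAM and then by pairing of the guide, which starts at the PAM-proximal end, known as the seed, so that mismatches there usually cost more binding than mismatches at the far end. The fused KRAB domain recruits the machinery that deposits H3K9me3 and closes chromatin, and H3K27ac marks active promoters and enhancers.

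The guides are shown first because every grouping below rests on how the genome departs from them. Position 1 is the 5′ base of the guide and position 20 lies next to the PAM, and the capitals mark positions 11 to 20, the PAM-proximal part.
sgRNA 4: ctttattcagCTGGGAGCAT
sgRNA 3: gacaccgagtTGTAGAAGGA
sgRNA 2: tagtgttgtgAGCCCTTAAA
sgRNA 1: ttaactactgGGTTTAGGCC

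The 3 partner guides stood at fixed places around sgRNA 4. Measured between protospacer centres along the strand of sgRNA 4, the commonest place of an sgRNA 3 site was -24 bp, at 261 of the 266 sgRNA 4 sites that had one within 600 bp. An sgRNA 2 site lay most often at 74 bp, and 422 of 423 were on the opposite strand. An sgRNA 1 site lay most often at 268 bp, with 137 of 138 on the same strand. A site of another sgRNA within 600 bp is called a partner here, and a partner with at most 1 mismatch a well-matched partner.

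The sgRNA 4 sites held 165 distinct 20-mers, of which 104 occurred at a single site. Away from the perfect match, the same changes recurred across copies, and position 9 was mismatched at 152 sites, position 12 at 132, position 19 at 129 and position 1 at 112. The 15 mismatched 20-mers with the most sites are given with their substitutions, guide base first, and with the changed bases in capitals. T12C also had 6 sites, as many as the last entries, and is not shown.
A9G T12C A19T, 22 sites: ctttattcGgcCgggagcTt
A19T, 17 sites: ctttattcagctgggagcTt
C1G A9G T12C, 13 sites: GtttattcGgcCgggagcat
T6A, 13 sites: ctttaAtcagctgggagcat
T12C A19T, 12 sites: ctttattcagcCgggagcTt
A9G A19T, 10 sites: ctttattcGgctgggagcTt
C1G A9G A16G, 10 sites: GtttattcGgctgggGgcat
T12C G13A A19T, 9 sites: ctttattcagcCAggagcTt
T6A G15A, 9 sites: ctttaAtcagctggAagcat
C1G C8T A9G, 8 sites: GtttattTGgctgggagcat
A9G T12C, 7 sites: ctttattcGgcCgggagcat
C1G T12C, 7 sites: GtttattcagcCgggagcat
T20C, 7 sites: ctttattcagctgggagcaC
C1T, 6 sites: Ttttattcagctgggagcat
C1T A9G T12C, 6 sites: TtttattcGgcCgggagcat

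A site counted as occupied where its 20-nt protospacer overlapped a dCas9 peak by at least 1 bp. Of the 555 sites, 173 were occupied, or 31.2% (27.5 to 35.1). For scale, 0.00525% of all 303665328 N20-NGG protospacers of the genome and 27.2% of the sites of all 4 sgRNAs lay under a dCas9 peak. Occupancy fell steeply with mismatches. Perfect sites were occupied at 116 of 157, or 73.9% (66.5 to 80.1). With 1 mismatch, 39 of 115 sites were occupied, or 33.9% (25.9 to 43.0). With 2 mismatches the count was 9 of 108 and with 3 mismatches 9 of 175, together 6.36% (4.06 to 9.83). The step from perfect to 1 mismatch was 40.0 percentage points (28.3 to 50.1), and the step from 1 mismatch to 2 or 3 was 27.6 points (18.8 to 36.9).

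Because a peak can come from any sgRNA that lands in the same element, occupancy was read next against the best match among the partners. Most sgRNA 4 sites had a partner, and only 10 perfect sites, 16 sites with 1 mismatch and 61 sites with 2 or 3 mismatches had none. Among perfect sites, 73 of 82 were occupied where a partner was perfect too, 20 of 32 where the best partner had 1 mismatch, 17 of 33 where it had 2 or 3, and 6 of 10 without a partner. Among sites with 1 mismatch the same order gave 24 of 29, 7 of 23, 6 of 47 and 2 of 16. Among sites with 2 or 3 mismatches it gave 3 of 9, 14 of 71, 1 of 142 and 0 of 61, where a count of 0 allows a share of up to 4.92%. Mismatched sgRNA 4 sites were thus occupied mainly where another guide matched well.

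Having any partner at all gave wide intervals. Perfect sites with a partner were occupied 14.8 points more often than those without (-9.56 to 44.2), and sites with 1 mismatch 24.9 points more often (-0.273 to 38.2), both spanning 0. A partner with at most 1 mismatch went with a larger difference, 28.1 points (11.9 to 43.9) at perfect sites, 46.9 points (29.8 to 60.6) at sites with 1 mismatch and 20.8 points (12.9 to 30.9) at sites with 2 or 3. Occupancy also differed by the number of partner sgRNAs. With 0, 1, 2 and 3 of them, perfect sites were occupied at 6 of 10, 17 of 39, 27 of 33 and 66 of 75. Sites with 1 mismatch were occupied at 2 of 16, 10 of 48, 8 of 25 and 19 of 26. Match and number of partners were not separated. These splits group elements and not cells, so the guide that bound each element cannot be told apart.

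The 309 sgRNA 4 sites whose partners all had at least 2 mismatches, or that had no partner, come closest to showing sgRNA 4 by itself. This restriction was chosen after the data were seen. Here 23 of 43 perfect sites were occupied, or 53.5% (38.9 to 67.5). Sites with 1 mismatch reached 8 of 63, or 12.7% (6.58 to 23.1), and sites with 2 or 3 mismatches 1 of 203, or 0.493% (0.0870 to 2.74). The step from perfect to 1 mismatch was 40.8 points (22.9 to 56.1), close to that over all sites, and the step from 1 mismatch to 2 or 3 was 12.2 points (5.69 to 22.6).

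The other guides were set beside sgRNA 4 under the same restriction. At perfect sites, occupancy was 6 of 9 for sgRNA 2, 5 of 7 for sgRNA 3 and 1 of 3 for sgRNA 1, and the differences of sgRNA 4 from them were -13.2 points (-39.0 to 21.1), -17.9 points (-43.0 to 20.3) and 20.2 points (-28.0 to 50.7). At sites with 1 mismatch, sgRNA 2 had 47 of 271 occupied, and the difference of sgRNA 4 minus sgRNA 2 was -4.64 points (-12.5 to 6.52). All these intervals span 0 and are too wide to rank the guides.

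Elements with and without an sgRNA 4 site were compared by joining all sites of the 4 sgRNAs within 600 bp into loci, 1229 in all, of which 554 held sgRNA 4. Loci were matched on the best other guide only, and not on how many other guides they held. Where the best other guide matched perfectly, loci with a perfect sgRNA 4 site were occupied at 73 of 81 and loci without sgRNA 4 at 51 of 59, a difference of 3.68 points (-6.97 to 15.7). Where the best other guide had 1 mismatch, the counts were 20 of 32 against 37 of 224, a difference of 46.0 points (27.9 to 61.2). Where the best other guide had 2 or 3 mismatches, they were 17 of 33 against 3 of 392, a difference of 50.7 points (34.4 to 66.7). A perfect sgRNA 4 site thus went with higher occupancy at loci where the other guides matched imperfectly, and no difference was detectable where another guide already matched perfectly. With 2 or 3 mismatches in the sgRNA 4 site, 4 of 9 loci were occupied where the best other guide was perfect, a difference of -42.0 points (-68.4 to -11.1) from loci without sgRNA 4. The count was 17 of 71 where the best other guide had 1 mismatch, a difference of 7.43 points (-2.59 to 19.3). It was 1 of 142 where that guide had 2 or 3 mismatches, a difference of -0.0611 points (-1.63 to 3.16).

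The place of a single mismatch was read next. With the mismatch at positions 1 to 10, the PAM-distal part, 22 of 51 sites were occupied, and with it at positions 11 to 20 the count was 17 of 64, a difference of 16.6 points (-0.797 to 33.0). Among sites without a partner under 2 mismatches, 8 of 32 with a PAM-distal mismatch were occupied and 0 of 31 with a PAM-proximal one. The count of 0 allows a share of up to 9.68%, and the difference was 25.0 points (8.89 to 42.1). Beside a partner with at most 1 mismatch the counts were 14 of 19 and 17 of 33, a difference of 22.2 points (-5.41 to 44.0). The 17 occupied sites with a PAM-proximal mismatch were therefore all next to a well-matched partner.

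The 8 occupied PAM-distal sites without such a partner carried A9G and T6A at 2 sites each and C1G, T2A, T6C and G10A at 1 site each. By substitution, A9G was occupied at 2 of 5 sites, none of which had a well-matched partner. T6A was occupied at 2 of 10 sites without such a partner and at 2 of 3 with it. A19T, the commonest single change and the second base from the PAM, was occupied at 0 of 10 sites without a well-matched partner and at 1 of 7 with it. T12C was occupied at 0 of 6 and T20C at 0 of 6 sites without a well-matched partner. Over all partner classes, A19T sites were occupied 32.9 points less often than sites with other single changes (interval -43.9 to -9.93). No A19T site had a perfect partner, and sites with other single changes and a perfect partner were occupied at 24 of 29. This difference therefore does not separate the substitution from the match of the partner. The commonest 20-mer with several changes, A9G T12C A19T, was occupied at 0 of 22 sites, and 6 of these had a well-matched partner.

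The first base of the PAM was C at 111 perfect sites, T at 42, A at 3 and G at 1. Perfect sites were occupied at 85 of 111 with CGG and at 28 of 42 with TGG, a difference of 9.91 points (-5.16 to 26.5) that does not separate them. Without a well-matched partner the counts were 18 of 30 and 3 of 11. With 1 mismatch, 33 of 75 CGG sites were occupied, or 44.0% (33.3 to 55.3). For TGG it was 6 of 36, or 16.7% (7.87 to 31.9). With 2 or 3 mismatches the counts were 10 of 151 and 5 of 108. The PAM counts of mismatched sites were not split by partner match or by mismatch position.

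The study kept uniquely mapped reads only, so occupancy was also set against how repeated the surroundings of a site are. The measure was the share of the 75-mers starting within 200 bp of a site that occur once in the genome. Of the 9 perfect sites where under 50% were single-copy, 2 were occupied, against 114 of 148 above that level. Both occupied ones lay on chromosome X, starting at 1172345 and 2179438, and 2 of the unoccupied ones lay on chromosome Y at the same coordinates, in the pseudoautosomal region that the X and Y references share, so each of these sequences was counted once as occupied and once as not. Leaving out the sites on chromosome Y, the difference was 50.6 points (14.3 to 71.8), with 7 sites below that level. The 75-mer counts still included chromosome Y, so the 2 occupied pseudoautosomal sites on X stayed among these 7. None of the 19 sites on chromosome Y was occupied, 6 perfect ones included, 2 of which are these pseudoautosomal copies. The K562 H3K27ac list held 0 peaks on that chromosome and the dCas9 list held 1. Whether these K562 cells carried chromosome Y was not tested, so its sites are not read as a binding share. Without chromosome Y, 116 of 151 perfect sites were occupied, or 76.8% (69.5 to 82.8).

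Of the 393 dCas9 peaks, 173 held an sgRNA 4 site, or 44.0%, and 0 held more than 1 such site. Fold enrichment, the height of a peak over its local background as the peak caller gave it, had a median of 10.0 (8.86 to 10.9) in peaks with an sgRNA 4 site. It was 7.90 (6.95 to 8.50) in 103 peaks with sites of other sgRNAs only and 5.78 (5.07 to 6.09) in 117 peaks with no site. By the match of the sgRNA 4 site, the median was 10.6 with 0 mismatches, 9.64 with 1, 7.34 with 2 and 7.34 with 3. Peaks with sites of all 4 sgRNAs were the tallest, with a median of 14.2 (12.0 to 16.1) over 48 peaks, and the 10 peaks with an sgRNA 4 site only had 7.39 (5.07 to 10.9).

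At an equal number of sgRNAs, the order of the medians varied. With 1 sgRNA the median was 7.39 (5.07 to 10.9) over 10 peaks with sgRNA 4 and 6.36 (5.81 to 7.13) over 57 without. With 2 sgRNAs the medians were 8.12 (6.61 to 9.48) over 65 peaks with sgRNA 4 and 9.88 (7.69 to 12.2) over 30 without, and with 3 sgRNAs they were 9.46 (8.14 to 11.8) over 50 and 13.0 (8.83 to 15.3) over 16. The intervals overlap at each number of sgRNAs. The medians by match given above were not separated from the number of sgRNAs either. For peaks with a perfect and a mismatched sgRNA 4 site they were 9.46 and 7.07 with 2 sgRNAs, 8.70 and 10.6 with 3, and 14.7 and 12.5 with 4. With sgRNA 4 only they were 8.86 and 5.91, over 7 and 3 peaks.

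The summit, the highest point of a peak, had a median distance of 25.5 bp to the middle of the sgRNA 4 protospacer, and was within 50 bp of it in 128 of 173 peaks. In the 10 peaks with an sgRNA 4 site only, the median was 9.50 bp. Over the 173 peaks the signed medians lay downstream, towards the side of sgRNA 2. They were 14.5 bp for perfect sites, 25.5 bp with 1 mismatch, 35.5 bp with 2 and 48.5 bp with 3. The last 2 classes rested on 9 peaks each. At an equal number of sgRNAs this rise was not general. For perfect and mismatched sites the medians were 3.50 and 39.5 bp with 2 sgRNAs, 27.5 and 21.5 bp with 3, and 24.0 and 25.5 bp with 4. With sgRNA 4 only they were 5.50 and 24.5 bp, over 7 and 3 peaks. Among 163 peaks that also held another guide, sgRNA 4 was the nearest guide to the summit in 85, sgRNA 2 in 54, sgRNA 3 in 24 and sgRNA 1 in 0. For the 109 of these with a perfect sgRNA 4 site it was nearest in 64, for the 36 with 1 mismatch in 13, and for the 18 with 2 or 3 mismatches in 8.

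The 10 sites under the tallest peaks reached fold enrichments of 19.2 to 26.3, and 9 of them matched perfectly. The tallest was a site in an intron of POT1-AS1, a long non-coding RNA gene antisense to the telomere protein gene POT1, at 26.3 with its summit 1.50 bp from the protospacer centre. The next, at 23.6, lay in an exon of a transcript of DYNC1H1, the heavy chain of cytoplasmic dynein, at chr14:102056409-102056428. An intergenic site on chromosome 8 had 23.3, and a site in a non-coding exon part at ATG10 and RPS23, a gene for a small ribosomal subunit protein, had 21.4. Sites in introns of FLOT2, a membrane scaffold protein gene, and CERT1, a ceramide transfer protein gene, had 20.1 and 19.2. The remaining perfect sites lay between genes near POM121L2 (20.7) and RAB42 (19.3) and in the non-coding gene CERNA2 (19.6). The mismatched member was a G15C site at C12orf76, with a value between those of FLOT2 and CERNA2 and a perfect sgRNA 3 site beside it.

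Only 8 sites were occupied without a partner. The 6 perfect ones lay near GCC1, a golgin gene (fold enrichment 11.6), intergenic near HMGN4 (10.9), intergenic on chromosome 1 at chr1:166653053-166653072 (10.6), in an intron of GSTM5, a glutathione S-transferase gene (8.86), near ZNF747 (7.32) and in an intron of PLCB1, a phospholipase C gene (5.59). Their summits lay between -0.500 and 22.5 bp of the protospacer centre. The other two both carried A9G, in an intron of SPOPL, an adaptor of a ubiquitin ligase (7.46), and at chr7:24789349-24789368 (5.91). The 4 perfect sites without a partner and without a peak lay near HENMT1, on chromosome 11, in an intron of FBXL7 and on chromosome Y, and every 75-mer counted was single-copy at all of them but the HENMT1 site. Without chromosome Y, 6 of 9 perfect sites without a partner were occupied.

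All 18 occupied sites with 2 or 3 mismatches had a partner, and in 17 the best partner had at most 1 mismatch. Their fold enrichments ran from 3.75 to 17.8. The tallest were the C18T A19G site on chromosome 5 at chr5:163319101-163319120 (17.8) and the A16G G17T site next to UBE2D2 (15.5), a ubiquitin-conjugating enzyme gene, both with a perfect partner. The exception was the C8T C11T T12G site in an intron of ADAMTS13, the gene of the protease that cuts von Willebrand factor, 427 bp from a start of REXO4, whose sgRNA 2 partner had 2 mismatches; its fold enrichment was 7.34. Others lay in introns of HK1, a hexokinase gene (5.36), AEN, an apoptosis-enhancing nuclease gene (8.70), SPIRE1, an actin nucleator gene (9.67), MYO3B, a myosin gene (6.57), CCSER1 (7.53), SLC66A1L (6.56) and, among non-coding genes, MCPH1-AS1 (7.34). Between genes lay sites near ACSF2 (4.34) and MCM3 (3.75), at chr7:21373007-21373026 (3.75) and on chromosome X (13.3), and the ZNF764 site described below. Near ERVH48-1 on chromosome 21, copies of the same T3G T6A 20-mer were occupied at 5.21 and 11.2.

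Same-strand sgRNA 4 sites 2000 to 10000 bp apart, the spacing at which the flanking repeats of a provirus would lie, formed 39 pairs over 77 sites, a range chosen after the data were seen. Whether these pairs flank proviruses was not tested. Both sites were occupied in 14 pairs, a single site in 5 and no site in 20. Of 9 pairs with both sites perfect, 7 had both occupied and 0 a single site. Among the 5 pairs that split, an A19T pair on chromosome 18 had the same 20-mer at both sites, with a peak of 5.50 at the copy next to a partner with 1 mismatch and no peak at the copy whose partner had 2. A T6A pair in an intron of RNGTT, an mRNA capping enzyme gene, also shared its 20-mer, and there the occupied copy (7.07) had 1 partner, with 3 mismatches, while the unoccupied copy had none. Near UGT2B17, a steroid glucuronosyltransferase gene, the perfect site had a fold enrichment of 11.2, and the G17A site 6142 bp further on, 30 bp from a start of the gene, had no peak.

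Most sites lay away from coding sequence, with 297 intergenic, 231 in introns, 16 in exons of non-coding genes and 11 in non-coding exon parts of protein-coding genes. Occupancy was 90 of 297 in the intergenic class and 70 of 231 in introns, both 30.3%. A start of any annotated transcript lay within 500 bp of 24 sites, of which 11 were occupied, against 162 of 531 other sites. Such starts were near 6.36% of occupied and 3.40% of unoccupied sites, a difference of 2.96 points (-0.666 to 7.83).

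Within 500 bp of a protein-coding start lay 11 sites. The occupied ones were the perfect sites at MYOCOS (6.90), CNDP2, a dipeptidase gene (10.5), and MACROD2, an ADP-ribose hydrolase gene (5.65), together with the UBE2D2 and REXO4 sites above. The unoccupied ones were the G17A site at UGT2B17 and sites with 3 mismatches at AMY1B and AMY1C, salivary amylase genes, AP2A2, a clathrin adaptor gene, IQCF2, and ACOX3, a peroxisomal acyl-CoA oxidase gene. At AMY1B and AMY1C, 18.8% and 0% of the nearby 75-mers were single-copy. The only perfect site near any start without a peak lay at chr19:22362183-22362202, 387 bp from a start of ENSG00000268685.

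Of 17 genes looked up, 6 had an sgRNA 4 site within 50 kb, and every such site was perfect and occupied. Over all 555 sites, 157 were perfect, and 116 of those were occupied. The paper reports lower APOL1 and ZNF611 expression after this same CRISPRi, next to targeted elements. Peaks near these genes were therefore likely in advance and do not test the guide. The site 2410 bp from a start of APOL1, an apolipoprotein gene, had a fold enrichment of 6.82, and the site in an intron of IL23R, the interleukin 23 receptor gene, had 16.8. On chromosome 19, ZNF611 had sites of 13.0 and 12.0, and ZNF888, ZNF320 and ZNF321P shared sites of 10.2 and 16.9. The first 3 of these genes encode zinc finger proteins, and ZNF321P is a zinc finger pseudogene. No site lay within 50 kb of AHSP, BIK, RHEX, SAGE1, SCIN, RPL7L1, TPD52 or the apolipoprotein genes APOC1, APOE, APOC2 and APOC4-APOC2.

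H3K27ac in the untargeted lines lay at few of the sites. In K562, Molm13 and OCI-AML3 the share over all 555 sites was still above that of all N20-NGG protospacers, and in HL-60 the interval spanned it. Marker promoters set K562 apart from the other lines. All 7 erythroid ones, GATA1 and HBG1 among them, carried H3K27ac in K562 and 1 of 7, EPOR, did in each of the other lines. Of the 7 myeloid ones, 3 carried it in K562, 6 in HL-60 and 7 in both Molm13 and OCI-AML3. Molm13 and OCI-AML3 had the same marked promoters and HL-60 lacked only CSF3R, so these markers do not check the labels among those lines. In K562, 34 of 555 sites overlapped a peak, or 6.13% (4.42 to 8.44), against 3.43% of all N20-NGG protospacers. In Molm13 the count was 38, or 6.85% (5.03 to 9.26), against 2.80%, and in OCI-AML3 37, or 6.67% (4.88 to 9.05), against 3.23%. In HL-60 it was 5, or 0.901% (0.385 to 2.09), against 1.31%. Thus 483 sites had H3K27ac in no line, 72 in at least 1 and 4 in all. The lists differ in length, from 20772 peaks in HL-60 to 37571 in OCI-AML3, and shares are read only against the share of protospacers in the same list.

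In K562, 9 of 173 sites that dCas9 occupied had carried H3K27ac in empty-vector cells, and so had 25 of 382 unoccupied ones, a difference of -1.34 points (-5.16 to 3.51). Perfect sites had it at 4 of 157 and mismatched ones at 30 of 398, a difference of -4.99 points (-8.38 to -0.579). The same difference was 1.11 points (-3.20 to 6.73) in Molm13 and 0.474 points (-3.71 to 5.97) in OCI-AML3, and whether the lines differ in it was not tested. The share of perfect sites was 2.55% (0.995 to 6.37) in K562, an interval that spanned the 3.43% of all protospacers. It was 7.64% (4.43 to 12.9) in Molm13 and 7.01% (3.96 to 12.1) in OCI-AML3, against 2.80% and 3.23% of protospacers. Among perfect sites, 113 of 153 without K562 H3K27ac were occupied and 3 of 4 with it. Among sites with 1 mismatch, 37 of 105 without H3K27ac were occupied and 2 of 10 with it. Among sites with 2 or 3 mismatches, 14 of 263 without H3K27ac were occupied and 4 of 20 with it, with intervals of 3.20 to 8.74% and 8.07 to 41.6%. In OCI-AML3, H3K27ac overlapped 17 of the 173 sites that dCas9 occupied in K562 and 20 of the 382 that it did not, a difference of 4.59 points (0.0830 to 10.2). The same difference was 1.81 points (-2.51 to 7.23) in Molm13, with 14 of 173 against 24 of 382, and 1.21 points (-0.570 to 4.47) in HL-60, with 3 against 2 sites, both spanning 0.

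The highest fold enrichment of H3K27ac in K562 was 5.04, at an unoccupied A9G T12C A19T site at chr11:350317-350336. Next came the A19T pair on chromosome 18 described above, both copies under 1 broad peak of 4.53, an A5T site near CFAP126 (4.52) and an A9G site in non-coding exons far from UQCRFS1 (4.52), of which only the first copy of the pair was occupied. A C1T A9G site 1212 bp from a start of ZNF764 had 4.32 and was occupied by dCas9. A pair of T6A C18A sites in ADCY10, a soluble adenylyl cyclase gene, lay under 1 H3K27ac peak of 3.90 and had no dCas9 peak.

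Perfect sites with H3K27ac in K562 numbered 4. The ZNF888 site, in an exon of ZNF888-AS1 and 575 bp from a start of ZNF888, had an H3K27ac fold enrichment of 4.27 in K562 and of 9.75 in Molm13, 4.78 in HL-60 and 3.82 in OCI-AML3. The site at chr1:31482928-31482947 had 3.35, 7.25, 4.73 and 5.08 in the same order. The ZNF611 site, 597 bp from a start of that gene, had 3.94 in K562 and no peak elsewhere. These 3 were occupied by dCas9, and the fourth, at chr2:200124966-200124985 with 3.46, was not. The other 2 sites with H3K27ac in all 4 lines were the REXO4 site, occupied, and the ACOX3 site, unoccupied, both with 3 mismatches.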

How the data were processed

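ChIP-seq peak lists of 5 of 19 samples were analysed and the other 14 samples were not analysed here. The authors trimmed reads with Trim Galore 0.4.5, aligned them to hg38 with Bowtie2 (2.3.4 in the submitters' processing notes), kept uniquely mapped reads and called peaks with MACS2 2.1.1, with broad peaks for H3K27ac. Whether input served as control was not given in the sources used here. The deposited columns hold a score, the fold enrichment (a ratio), and the −log10 p-value and −log10 q-value of each peak, and the deposited dCas9 list also gives the summit. Read counts per peak are not among these columns, so depth is unknown.

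The sgRNA sequences came from the study's reagent list. Python 3.11.15 with NumPy 2.4.6, numba 0.67.0, pandas 2.3.3 and SciPy 1.17.1 searched hg38, and the search recovered 200 of 200 sites planted in simulated sequence. Genes came from the GENCODE annotation. A partner was a site of another sgRNA within 600 bp. Shares carry Wilson intervals, differences Newcombe intervals and medians binomial order-statistic intervals, all 95%. Sites named in the text were those under the 10 tallest dCas9 peaks, occupied sites without a partner, occupied sites with 2 or 3 mismatches, the 10 with the most K562 H3K27ac, those within 500 bp of a protein-coding start, perfect sites at any start without a peak, and those near 17 listed genes. The perfect sites with K562 H3K27ac, those with H3K27ac in all lines, split pairs and perfect sites without partner or peak were singled out after their values were seen. Members, groups and gene lists were chosen with earlier results of these data known. Alternatives varied the mismatch limit, PAM, overlap, q-value, partner definition, loci, chromosome Y and repeated surroundings. Longer stretches of sequence around the sites are not reported here.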

Additional observations from a re-analysis of the deposited data

How the results depend on the processing

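Over 14 results and 114 alternative values, 103 stayed within the interval of the reported value and 11 moved outside it. Occupancy of all sites, 31.2%, was 43.2% with at most 2 mismatches, 19.2% with at most 4 and 27.3% with NAG allowed as PAM, since these change which sites are counted. Without a partner under 2 mismatches, a setting added after the data were seen, occupancy was 53.5% at perfect sites, 12.7% with 1 mismatch and 0.493% with 2 or 3. The partner difference at sites with 1 mismatch was 46.9 points when only partners with at most 1 mismatch counted. With H3K27ac taken within 500 bp, its share was 2.34% in HL-60, 9.19% in OCI-AML3 and 8.65% in K562, and with a q-value below 0.001 it was 3.78% in Molm13. The share of all protospacers was not computed for these settings, so whether these values exceed it is unknown. Fold enrichment and summit distance stayed within their intervals under all alternatives run for them. The PAM-distal minus PAM-proximal difference, 16.6 points with an interval spanning 0, was 5.80 points with NAG allowed and 7.24 points with positions 9 to 20 as the proximal part. It was 22.4 points (4.44 to 37.1) with positions 16 to 20 and 19.3 points (2.33 to 35.3) with the whole protospacer inside the peak, intervals that exclude 0. The K562 H3K27ac difference between occupied and unoccupied sites, -1.34 points, was 1.12 points with at most 4 mismatches and 1.01 points with an H3K27ac q-value below 0.001, all spanning 0. No paired analysis was possible because each of the 5 lists analysed comes from 1 library, with no other list of its group. Depth is unknown, an unoccupied site may be bound below the peak threshold or lie where reads cannot be placed, and the dCas9 library of empty-vector cells was not analysed here.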

Other observations

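Sites with the PAM NAG, outside the definition used above, numbered 224 with at most 3 mismatches, and 40 were under a dCas9 peak. Perfect NAG sites were occupied at 27 of 38 with a partner under 2 mismatches and at 0 of 9 without one, where perfect NGG sites had 23 of 43. With 1 mismatch the NAG counts were 7 of 18 and 0 of 22. Sites with NGG and 4 mismatches were occupied at 8 of 38 beside a partner under 2 mismatches and at 1 of 357 without one, or 0.280% (0.0495 to 1.57).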
